A study of Mus musculus with 2 samples.

Results

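The tetraspanins are a family of small membrane proteins that cross the membrane several times, and 26 of the 21755 protein-coding genes of the mouse annotation belonged to the set described here. The set took every coding gene whose symbol is Tspan followed by a number, and added Cd37, Cd53, Cd63, Cd81, Cd82 and Cd151. Open chromatin was measured in mouse megakaryocytes by ATAC-seq, in which a transposase cuts accessible DNA and the cut sites are sequenced. There was 1 group, with 2 replicates of 50000 primary cells each, from adult male C57BL/6J animals aged 5-6 weeks. Both replicates carry the same donor record, no treatment or genotype is given, and the labels do not say how the megakaryocytes were isolated. With 1 group and no other cell type, nothing below compares conditions, and whether a region is particular to megakaryocytes was not tested.

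Tetraspanins sit in the plasma membrane and in vesicles, where they bind one another and partner proteins such as integrins, immunoglobulin-family proteins and the protease ADAM10, and so decide where these partners go and what they associate with. Platelets, which megakaryocytes shed, carry several of them: CD9 and CD151 beside the fibrinogen receptor, CD63 in the membrane of granules and lysosomes, and Tspan9 near collagen receptors. The TspanC8 subgroup escorts ADAM10 to the cell surface, and CD37, CD53 and Tspan32 are known mainly from blood cells.

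The chromatin of 21 members was open at a promoter, which was 80.8% of the set beside 59.8% of all coding genes. A promoter was called open where a region listed in both replicates lay within 500 bp of any transcript start of the gene. Each region carries a value of the authors, read here as fold enrichment over local background. The value of a promoter is that of its strongest region. The median over the open members was 8.42-fold (range 5.54 to 14.8), and the median over all open coding promoters was 11.5-fold. Tspan15, Tspan33, Tspan17 and Tspan3 lay above that median. Tspan15 was the highest member, and 21.1% of all open coding promoters were at least as high. The share of open promoters was higher among members than among coding genes at large, while 17 of the 21 open members had a fold enrichment below the median of open coding promoters. No read counts were used, so the depth is unknown and a missing region was one not detected at that depth.

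The sequences at the summits of 3 member promoters and 4 distal regions are given first, so that the strongest promoters and a region near each of 4 genes described below can be read. Bases are from the mm10 genome, 5′ to 3′ on the strand of the member gene, within 100 bp of the summit and outside annotated untranslated regions. Capitals mark a match, on either strand, to 1 of the 6 motifs searched, which are named after the sequences. The promoters of Tspan15, Tspan33 and Tspan17 were the 3 strongest of the family.
Tspan15 (chr10:62231252-62231377, minus strand): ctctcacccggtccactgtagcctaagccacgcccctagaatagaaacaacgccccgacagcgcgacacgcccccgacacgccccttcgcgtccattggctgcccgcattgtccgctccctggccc
Tspan33 (chr6:29694054-29694221, plus strand): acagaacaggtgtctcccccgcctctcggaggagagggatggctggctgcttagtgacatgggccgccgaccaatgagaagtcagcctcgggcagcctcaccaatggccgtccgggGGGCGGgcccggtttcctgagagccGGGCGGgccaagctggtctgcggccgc
Tspan17 (chr13:54789088-54789288, plus strand): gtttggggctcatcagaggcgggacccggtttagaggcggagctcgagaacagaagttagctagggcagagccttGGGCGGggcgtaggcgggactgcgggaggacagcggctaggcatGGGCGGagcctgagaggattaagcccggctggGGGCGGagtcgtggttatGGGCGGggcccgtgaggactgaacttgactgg
The distal regions are the strongest near Cd53, Tspan2, Tspan14 and Tspan9. The Cd53 region had the highest value of all distal regions near members and was chosen after its value was seen. The others are the strongest near 3 of the genes with the most distal regions, and some regions near other members that are not printed had higher values. The strongest near Tspan32, Tspan5 and Cd82, which also had many distal regions, are not printed. Of these, the windows of Tspan32 and Cd82 hold no match, and that of Tspan5 holds 1.
Cd53 (chr3:106809402-106809602, minus strand): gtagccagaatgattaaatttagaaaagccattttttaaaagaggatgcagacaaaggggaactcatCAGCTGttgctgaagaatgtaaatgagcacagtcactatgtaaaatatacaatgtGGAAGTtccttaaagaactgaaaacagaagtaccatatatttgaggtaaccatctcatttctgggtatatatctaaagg
Tspan2 (chr3:102803993-102804193, plus strand): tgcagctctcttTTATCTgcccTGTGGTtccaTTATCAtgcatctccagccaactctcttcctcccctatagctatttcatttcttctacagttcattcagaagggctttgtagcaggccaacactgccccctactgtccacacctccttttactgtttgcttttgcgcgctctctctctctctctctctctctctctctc
Tspan14 (chr14:40975238-40975438, minus strand): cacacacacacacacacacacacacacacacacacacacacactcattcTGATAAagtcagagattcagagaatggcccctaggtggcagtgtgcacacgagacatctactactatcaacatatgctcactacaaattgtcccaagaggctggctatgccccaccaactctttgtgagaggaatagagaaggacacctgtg
Tspan9 (chr6:128107846-128108046, minus strand): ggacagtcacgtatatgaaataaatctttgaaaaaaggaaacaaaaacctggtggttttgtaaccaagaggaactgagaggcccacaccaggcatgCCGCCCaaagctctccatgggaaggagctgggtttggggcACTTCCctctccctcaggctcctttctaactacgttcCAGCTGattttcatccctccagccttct

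The GATA motif was searched as AGATAA and in its other form as TGATAA. The ETS motif was searched with the letters GGAAGT, and the RUNX motif with the letters TGTGGT. That of NF-E2 or AP-1 was TGANTCA, the E-box of TAL1 was searched as CAGCTG, and the box bound by Sp1-type factors, called the GC box, as GGGCGG. Both strands were read, and no motif contains another. The Tspan17 stretch holds 4 GC boxes and the Tspan33 stretch 2. The Tspan15 stretch holds no match, and the full window around its summit has 1 TGANTCA in the bases not printed. The Tspan2 distal sequence holds 2 GATA matches around 1 RUNX match, while that of Cd53 holds an ETS match and an E-box. In each of these 7 windows the central 51 bases occurred 1 time on the assembled chromosomes. A match is a description of letters, and a window without one says nothing about a factor.

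The TspanC8 subgroup had the highest median fold enrichment at its promoters, although its members were spread over the order. Of its 6 members 5 (83.3%, beside 59.8% of all coding genes) were open, with a median of 12.2-fold (range 7.27 to 14.8). The medians of the other subgroups were 8.42-fold over 7 broadly expressed or vesicle members, 7.65-fold over the 5 open of 9 other members, and 7.47-fold over 4 haematopoietic and leukocyte members. These subgroups are small, and no test was made between them.

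Tspan15 measured 14.8-fold in replicate 1 and 14.8-fold in replicate 2, a mean of 14.8 ± 0.0202 (SD, n = 2). Its region (chr10:62231068-62231606) had its summit 26 bp upstream of the annotated 5′ end. The encoded protein is a TspanC8 member that directs ADAM10 towards particular substrates. Tspan33, which encodes a TspanC8 protein known from erythroid cells and activated B cells, measured 13.1-fold and 14.2-fold, a mean of 13.6 ± 0.755 (chr6:29693852-29694335). Tspan17, another ADAM10 partner, measured 12.8-fold and 11.7-fold, a mean of 12.2 ± 0.769 (chr13:54788802-54789703). The replicate ranges of Tspan15 and Tspan33 did not overlap, nor did those of Tspan33 and Tspan17. Each SD here is over 2 replicates and measures only the spread between these samples.

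Tspan14 measured 10.3-fold and 9.48-fold, a mean of 9.9 ± 0.583, in a region 925 bp wide (chr14:40966697-40967621). Its −log10 p-value, also the authors' own value per peak, averaged 122 and was the highest of the family. Tspan5 was the lowest open TspanC8 promoter, with 7.29-fold and 7.26-fold, a mean of 7.27 ± 0.0239. It had 3 promoter regions, of 7.27-fold, 5.46-fold and 6.14-fold, all within 1 kb of the 5′ end. Tspan10, a TspanC8 gene known from pigment cells, had no promoter region in either replicate.

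The partner itself, Adam10, had an open promoter of 14.4-fold and 14.9-fold, a mean of 14.7 ± 0.342. This protease sheds the outer parts of many surface proteins, among them platelet glycoprotein VI. The related sheddase gene Adam17 averaged 13.8 ± 0.412, and Itga2b, the alpha chain of the fibrinogen receptor and a megakaryocyte marker, 13.5 ± 0.584. These were the highest of 22 partner and cargo genes, of which 17 (77.3%) were open beside 59.8% of all coding genes, with a median of 7.53-fold. The others ranged down to Cd36 at 3.66-fold. No shared promoter region was found for Itga3, Itgb4, Mme, Gp6 or Clec1b. Gp6 encodes glycoprotein VI and Clec1b the platelet receptor CLEC-2, both of which are megakaryocyte and platelet genes.

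Of 5 tetraspanins that the naming rule left out, 2 (40%) were open, beside 59.8% of all coding genes. Cd9, an abundant tetraspanin of the platelet surface, averaged 8.09 ± 1.12, with 14 distal regions. Rom1, a photoreceptor protein, averaged 10.6 ± 0.658. Upk1a, Upk1b and Prph2, of bladder epithelium and photoreceptors, had no shared promoter region, and Upk1b had 1 in replicate 2 alone.

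**Figure D1:**
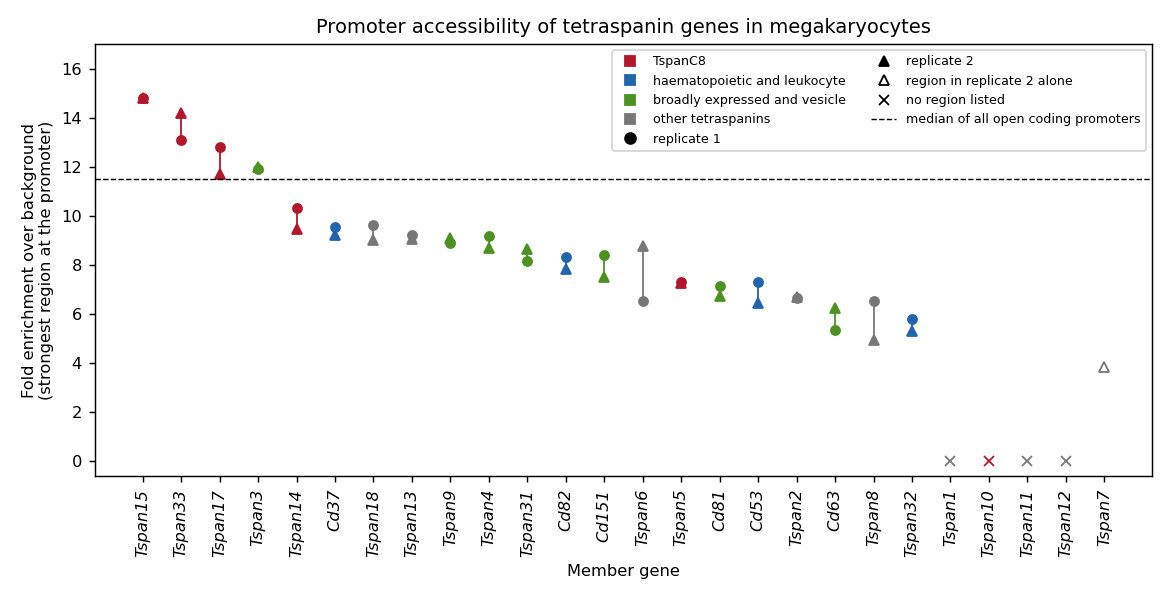
Fold enrichment over background of the strongest promoter region of each tetraspanin gene, with circles for replicate 1, triangles for replicate 2, colours for the subgroups, and crosses where neither replicate lists a region. Tspan15, Tspan33, Tspan17 and Tspan3 have means above the dashed line, the median of 11.5-fold over all open coding promoters, and the 5 genes without a shared region stand at the right, with Tspan7 listed in replicate 2 alone.

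All 4 haematopoietic and leukocyte members were open, at moderate values. Cd37, which encodes a leukocyte tetraspanin best known from B cells, measured 9.55-fold and 9.22-fold, a mean of 9.39 ± 0.232. The region (chr7:45237898-45239651) was 1754 bp wide, with 5 summits in replicate 1 and 4 in replicate 2, in a gene 5.48 kb long. Cd82, whose protein is known as a suppressor of metastasis and from blood stem cells, measured 8.31-fold and 7.82-fold, a mean of 8.07 ± 0.345. Cd53, which marks leukocytes broadly, measured 7.31-fold and 6.44-fold, a mean of 6.87 ± 0.615. Tspan32, which in mouse platelets takes part in signalling from the fibrinogen receptor, was the lowest open member, with 5.79-fold and 5.3-fold, a mean of 5.54 ± 0.349. With the Tspan32 region at 1196 bp and that of Cd82 at 1194 bp, these and Cd37 were the 3 widest of the strongest promoter regions of the members.

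Markers of other blood lineages were set beside the 59.8% of all coding genes that were open. Of these lists, only the neutrophil markers lay above that share, with shared promoter regions at 7 of 8 (87.5%), at 7.3-fold to 11.8-fold, with none at Elane. They were present at 3 of 6 monocyte and macrophage markers (Adgre1, Csf1r and Mertk), 2 of 4 B cell markers (Pax5 and Ebf1), 2 of 5 T cell markers (Cd3d and Cd5) and 2 of 5 erythroid markers (Hbb-bs and Epor). Of 13 megakaryocyte markers 6 (46.2%) were open, also below that share, namely Itga2b, Itgb3, Pf4, Vwf, Gata1 and Nfe2, while Gp1bb, Gp6, Ppbp and Tubb1 had no promoter region in either replicate. None of 3 hepatocyte markers was open, and of 3 neuronal markers Syn1 was. The part of other cell types in the values of Cd37, Cd53, Cd82 and Tspan32 was not tested. In a bulk sample, fewer cells of a type and less signal per cell cannot be told apart.

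All 7 broadly expressed or vesicle members were open. Tspan3, whose protein is found in many tissues, measured 11.9-fold and 12-fold, a mean of 11.9 ± 0.111 (chr9:56160689-56161226). Its open region was not at the annotated 5′ end but 4.4 kb inside it, 21 bp from the start of a coding transcript. The 5′ end itself was not open in both replicates, and Tspan3 was the member by which the 21 with any open start exceeded the 20 open at the 5′ end (54.4% of all coding genes). Tspan9, a platelet tetraspanin, measured 8.88-fold and 9.09-fold, a mean of 8.99 ± 0.146. Tspan4, known from migrasomes, measured 9.18-fold and 8.67-fold, a mean of 8.93 ± 0.362. Its region also lies within 500 bp of a start of Polr2l, which encodes a subunit of RNA polymerase. That region therefore cannot be assigned to Tspan4 alone.

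Tspan31 averaged 8.42 ± 0.344 and Cd151, which binds laminin receptors of the integrin family, 7.97 ± 0.637. Cd81, which encodes part of the B cell co-receptor complex, measured 7.13-fold and 6.73-fold, a mean of 6.93 ± 0.287. Cd63, the late endosome and granule protein that reaches the surface of activated platelets, was lower, with 5.33-fold and 6.23-fold, a mean of 5.78 ± 0.642. Cd63 had 4 promoter regions, the most of the family. Besides the strongest, they measured 3.98-fold at 0.687 kb upstream of the 5′ end, and 5.42-fold and 4.72-fold at starts 8.82 kb and 9.78 kb inside the gene. The Cd81 gene had 3, of 6.93-fold, 2.88-fold and 3.55-fold. In all, 8 members had 2 or more promoter regions, beside 14.3% of all coding genes. Only the strongest enters the values above.

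Of the remaining 9 members 5 (55.6%) were open, beside 59.8% of all coding genes. Tspan18, which in endothelial cells acts on a calcium channel, measured 9.62-fold and 9.02-fold, a mean of 9.32 ± 0.419. Tspan13 measured 9.2-fold and 9.04-fold, a mean of 9.12 ± 0.111, with a second region of 7.36-fold at a start 2.89 kb inside the gene. Tspan2, known from oligodendrocytes, averaged 6.66 ± 0.0367. Tspan6, on the X chromosome, and Tspan8, known from epithelial tumours, had the largest gaps between replicates. Tspan6 measured 6.52-fold and 8.78-fold, so replicate 2 was 1.35 times replicate 1. Tspan8 measured 6.52-fold and 4.94-fold, so replicate 1 was 1.32 times replicate 2. The other 19 members were within 1.2-fold.

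The members without a shared promoter region were Tspan1, Tspan7, Tspan10, Tspan11 and Tspan12. Tspan7, an X-linked gene known from neurons, had a promoter region of 3.84-fold in replicate 2 alone. Tspan12, which takes part in Norrin signalling in the retinal vasculature, had none in either replicate, although an intron held a region of 9.18-fold and 6.31-fold, a mean of 7.75 ± 2.03, at 57.4 kb from the 5′ end. An intron of Tspan7 held a region of 4.54 ± 0.559 at 97.8 kb, and introns of Tspan11 held regions of 5.23-fold and 6.37-fold. Tspan1, an epithelial tetraspanin, had a distal region of 10 ± 0.0534 at 1.64 kb upstream of its 5′ end. For Tspan10 the single distal region, of 5.13 ± 0.278, lay 37.6 kb upstream in an intron of another gene. Within 50 kb of a start, Tspan1, Tspan10 and Tspan11 had a shared distal region and Tspan7 and Tspan12 had none, beside 77.3% of all coding genes with at least 1. For regions further inside a gene, no share of all coding genes was computed.

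Neighbours in the order of promoter values were close. Of 20 neighbouring pairs, 14 had overlapping replicate ranges and 6 did not. The steps without overlap were below Tspan15, Tspan33, Tspan3, Tspan4, Tspan5 and Tspan2. From Tspan14 down to Tspan4 no neighbours were separated by their replicates. At the member promoters the replicates differed in both directions: 8 members were higher in replicate 2 and 13 in replicate 1, with a median log2 ratio of −0.05. Over all regions of each replicate the median was 6.65-fold in replicate 1 and 7.01-fold in replicate 2, so replicate 2 was the higher there.

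The CpG content of the promoter, which the naming rule did not use, was set beside these values. CpG observed over expected within 500 bp of the 5′ end had a median of 0.65 over open members and 0.413 over members not open. Over all coding genes the medians were 0.712 for open and 0.216 for not open promoters. Among members at 0.6 or more, 12 of 13 were open, beside 87.4% of coding genes, and Tspan12 (0.609) was the exception. Between 0.3 and 0.6, 4 of 6 were open, beside 57.6%. Under 0.3, 5 of 7 members were open, beside 22% of 7105 coding genes.

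The open members of the lowest band were Cd37 (0.293), Cd53 (0.126), Cd63 (0.138), Tspan3 (0.126) and Tspan32 (0.124), and the closed ones Tspan1 (0.238) and Tspan10 (0.123). This band held 3 of the 4 haematopoietic and leukocyte members, all of them open. For Tspan3 the window misses the open region, which lies at another start and has a ratio of 0.825. The 4 highest TspanC8 promoters had ratios between 0.623 (Tspan17) and 0.875 (Tspan14), but so did promoters of lower value such as Cd81 (0.727) and Tspan6 (0.732). No test of the relation was made.

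**Figure D2:**
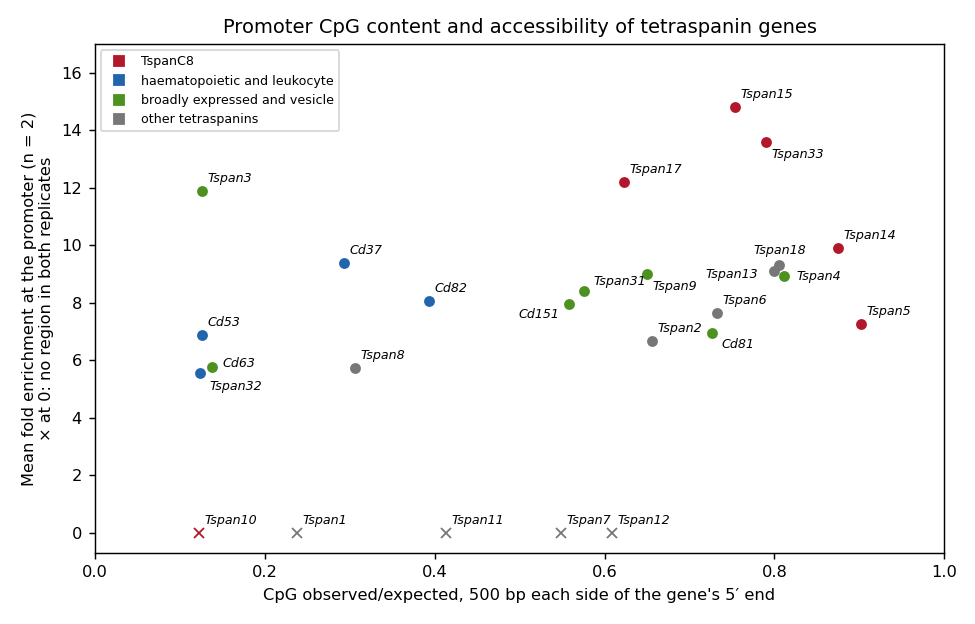
CpG observed over expected at the 5′ end of each tetraspanin gene (horizontal axis) against mean promoter fold enrichment over 2 replicates (vertical axis), with colours for the subgroups and crosses at 0 for members without a shared promoter region. Cd37, Cd53, Cd63, Tspan3 and Tspan32 are open at ratios under 0.3, and the closed members run from Tspan10 at 0.123 to Tspan12 at 0.609.

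Distal regions were found near 23 members, beside 77.3% of all coding genes. A distal region was shared by both replicates, had no part within 1 kb of any transcript start, and lay within 50 kb of a start of the member. The median was 4 per member and 3 per coding gene, and the mean 4.65 per member and 3.67 per coding gene. Members are long, with a median of 29 kb beside 17.4 kb, and a gene with many spread starts reaches more sequence. The counts sum to 121 over members, from 110 separate regions, since 11 lay near a pair of members. Their median was 6.83-fold (range 3.17 to 17.3), beside 7.12-fold over all 48720 distal regions. By position, 40 of the 121 lay in an intron of the member, 2 in an exon, 49 in another gene and 30 between genes. The member had the nearest coding start for 71 of them.

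The members with 8 or more distal regions were Tspan14, Tspan2, Tspan32, Tspan9, Cd82 and Tspan5, 6 of 26 beside 13.6% of coding genes. Tspan14 had 13, a count that 2.95% of coding genes reach, and 8 of them lay in its own introns. The strongest measured 12.8-fold in both replicates, a mean of 12.8 ± 0.0544, at 8.53 kb upstream (chr14:40975073-40975634). Its printed sequence has 1 TGATAA beside a CA repeat. Further regions of 10.9-fold and 8.73-fold lay 18.9 kb and 8.04 kb inside the gene.

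Tspan2 had 11, of which 4 lay in its introns. The strongest measured 13.9-fold and 14.8-fold, a mean of 14.4 ± 0.631 (chr3:102803940-102804345). It lies beyond the 3′ end of the gene, 69.6 kb from the 5′ end, and the nearest coding start is that of Tshb, 21.4 kb away. Another of 13.3 ± 0.346 lay 32.4 kb upstream. Both were higher than the promoter of Tspan2 at 6.66-fold. GATA matches were present in 4 of its 11 distal windows, beside 15.1% of all distal windows, and Tspan2 was singled out for this after its matches were seen. Over all members the share was 10.9%.

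Tspan32 also had 11, none in its own introns. The strongest measured 8.85-fold and 10.2-fold, a mean of 9.5 ± 0.919, at 46 kb upstream between genes (chr7:142958890-142959151), nearest to Ascl2. The gene lies next to Cd81, and all 7 distal regions of Cd81 were also within reach of Tspan32, so these members share their regions and are not independent. The strongest of the 7 had 8.43 ± 0.457, in an intron of a neighbouring gene. ETS matches were present in 8 of the 11 windows, beside 39.6% of all distal windows, and were singled out after they were seen. Over all members the share was 37.3%.

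Tspan9, the longest member at 182 kb, had 9, with 7 in its introns. The strongest measured 9.16-fold and 11.9-fold, a mean of 10.5 ± 1.95, at 35.6 kb inside the gene (chr6:128107584-128108287). Tspan5, 166 kb long, had 8, with 6 in introns and 1 in an exon, and its strongest measured 8.54-fold and 9.81-fold, a mean of 9.17 ± 0.9, at 11.5 kb (chr3:138752858-138753874). Both counts rest on starts deep inside the gene: with the 5′ end as the only start, Tspan9 had 2 and Tspan5 had 3.

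Cd82 had 8 distal regions, and for all of them it was the nearest coding gene. The strongest measured 9.2-fold and 8.79-fold, a mean of 9 ± 0.29, at 8.27 kb upstream (chr2:93470984-93471571), and 3 others lay upstream within 14.6 kb. Without replicate 2 the count for Cd82 was 13.

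**Figure D3:**
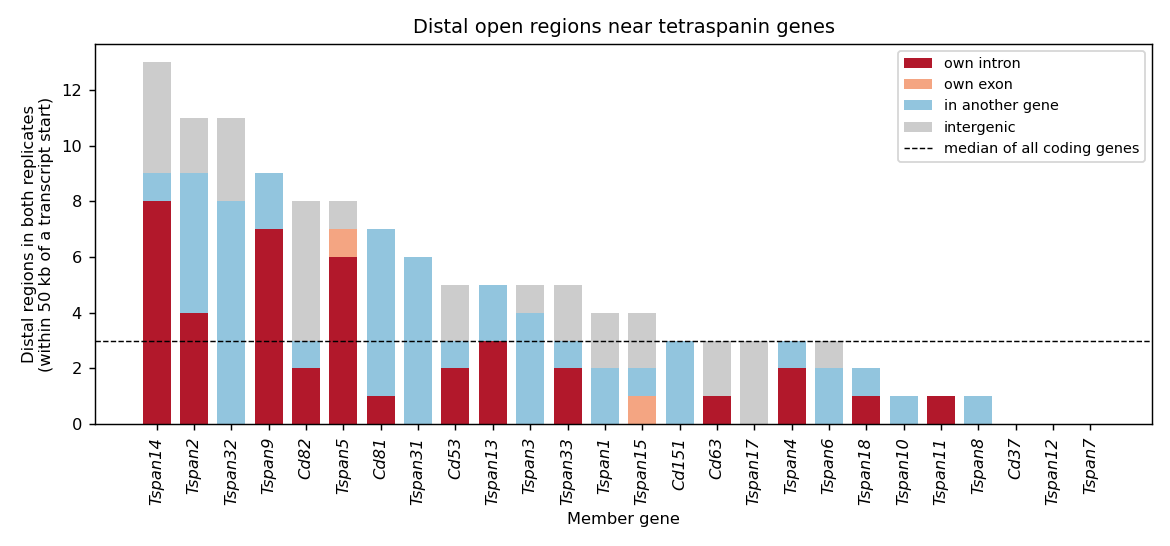
Number of distal open regions within 50 kb of each tetraspanin gene, as stacked bars coloured by where the region lies. Tspan14 (13), Tspan2 (11) and Tspan32 (11) have the most, Cd37, Tspan7 and Tspan12 have none, and the dashed line is the median of 3 over all coding genes.

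The strongest distal region of the family lay near Cd53. It measured 17.8-fold and 16.8-fold, a mean of 17.3 ± 0.691, at 19.4 kb upstream (chr3:106808964-106809715). The nearest coding start is that of Olfr266, an olfactory receptor gene, 13.1 kb away. Further upstream, at 42.2 kb, was a region of 14.5 ± 0.305, and at 8.12 kb one of 10.7 ± 0.365. All 3 were higher than the Cd53 promoter at 6.87-fold. The 2 regions inside the gene were lower, at 5.8-fold and 4.48-fold. ETS matches were present in 4 of the 5 distal windows, beside 39.6% of all, and in the promoter window, beside 27.4% of all, and were also singled out after they were seen.

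Cd37 differed from the other leukocyte members in having no shared distal region, while replicate 1 alone listed 1 of 7.4-fold. Tspan15 had 4, the strongest of 14.8 ± 0.559 at 48 kb from the 5′ end, which is as high as its promoter. Near Tspan3, a region of 13.6 ± 0.434 lay 41.8 kb upstream in an exon of another gene, and near Tspan6 one of 13.4 ± 1.68 lay between genes beyond its 3′ end. Near Tspan33, the strongest had 11.5 ± 0.967 at 54.7 kb, in an intron of another gene, and 100% of its window is marked as repeat in the reference. More than 50% of the window was so marked in 2.73% of the distal regions near members, beside 4.26% of all distal regions. Tspan31 had 6, all in other genes, and Cd151 shared its 3 with Tspan4.

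**Figure D4:**
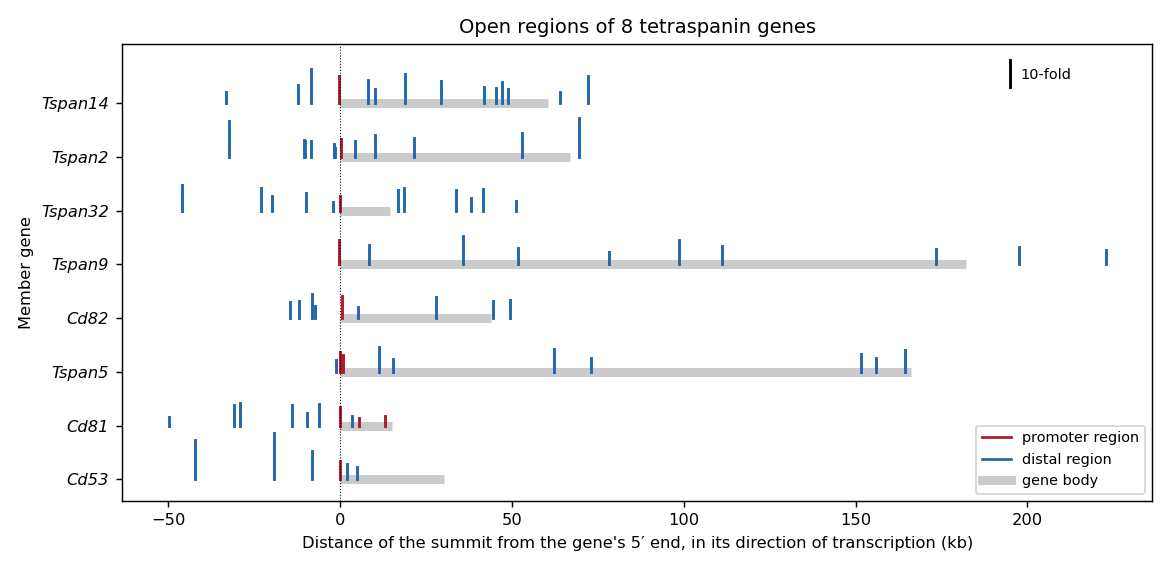
Open regions of 8 tetraspanin genes by distance from the gene's 5′ end in kb, with red lines for promoter regions, blue lines for distal regions, line height for mean fold enrichment (scale bar 10-fold) and grey bars for the gene bodies. Upstream of Cd53 stand the 3 lines of 8.12, 19.4 and 42.2 kb that exceed its promoter. The regions of Tspan9 and Tspan5 reach from the 5′ end to far inside the gene or beyond it, with gaps such as that of Tspan5 between 73.1 and 152 kb.

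Over the distal windows of the family, ETS, RUNX, GATA and NF-E2 or AP-1 matches stood at lower shares than over all distal windows, and the E-box and GC box at higher shares, with no test made. ETS matches were present in 37.3% of member windows and in 39.6% of all distal windows, RUNX in 20% and 25.6%, GATA in 10.9% and 15.1%, and NF-E2 or AP-1 in 6.36% and 10.7%. The E-box was present in 19.1% of member windows and 14% of all, and the GC box in 10.9% and 7.16%. A GATA match together with an ETS match occurred in 3 member windows (2.73%), beside 5.96% of all. At the 33 promoter regions the GC box was present in 48.5% and in 53.9% of all promoter regions, ETS in 15.2% and 27.4%, and the E-box in 21.2% and 12.3%. RUNX matches were present in 5 of the 33 member promoter windows (15.2%, beside 10.7% of all), and NF-E2 or AP-1 matches in 3 (9.09%, beside 4.32%). Both stood at higher shares there, unlike in the distal windows, but these shares rest on few windows. GATA matches stood in 2 of the 33 promoter windows (6.06%, beside 5.88% of all), 1 at Cd63 and 1 at Cd81. Both were weaker promoter regions of these genes, of 3.98-fold and 2.88-fold, and the strongest promoter region of each gene held no GATA match.

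Each replicate listed regions that the other did not. After overlapping peaks were merged there were 79800 regions in replicate 1 and 81707 in replicate 2, with a median of 6.65-fold and 7.01-fold, and 69539 regions were shared.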

How the data were processed

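Open chromatin was measured by ATAC-seq in 2 samples of 1 group. Per the labels, peaks were called on mm10, and the aligner and peak caller are not given in the sources used here. For each peak the authors deposited 2 values, read here as a fold enrichment over local background (column 7, a ratio) and a −log10 p-value (column 8). These readings rest on the peak format, since no header defines the columns. That column 7 is a ratio to local background is an assumption, because the peak caller is not given. The main values use the pseudoreplicated peaks of each sample. Alternatives use the lists thresholded on the irreproducible discovery rate (IDR) and 2 lists called on the pooled samples. All value columns were assigned, with 0 left unmapped.

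On chromosomes 1 to 19 and X, overlapping peaks of a sample (by 1 bp or more) were joined, and the joined region kept the summit and value of its highest peak. A shared region is the union of regions that overlap between replicates by at least 1 bp, and its fold is given per replicate and as mean ± SD. No scaling between samples is stated, and values were used as deposited. Transcript starts are from GENCODE M21 and bases from the GRCm38 reference. Distal windows were measured from any transcript start. CpG ratios and motifs used the same genome, with motif windows of 201 bases. Described in full were the 8 members with the highest promoters, every member without a shared promoter region, the 6 members with the highest counts of distal regions, ties included, with the strongest such region of each, and, of the partner genes, the 3 highest and those without an open promoter. The members and gene lists were chosen with earlier results of these data known, and some listed genes are not reported here. No hypothesis test was made. The counting steps were checked on simulated regions. Python 3.11.15, NumPy 2.4.6, SciPy 1.17.1 and matplotlib 3.10.9 were used.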

Additional observations from a re-analysis of the deposited data

How the results depend on the processing

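The number of tetraspanin genes with an open promoter was between 19 and 22 under every alternative tried, against 21 reported. It was 19 (73.1%, beside 53% of all coding genes) with the IDR lists of each sample, which lack Tspan6 and Tspan8. It was 22 (84.6%) with the replicated list of the series (beside 63.2%) or without replicate 1 (beside 61.3%), both of which add Tspan7. The median promoter value was 8.93-fold with the IDR lists, 8.77-fold with the replicated list and 9.18-fold with the conservative list, against 8.42-fold, and leaving out a replicate gave 8.42 to 8.67. Distal regions summed to 64 with the IDR lists, 74 within 20 kb and 230 within 100 kb, against 121, to 180 with the replicated list, and to 144 to 148 with 1 replicate left out. With the IDR lists Tspan2 had 4 distal regions, Tspan32 had 6, Tspan9 had 3, Cd82 had 5 and Tspan5 had 2. With the replicated list Cd82 had 18, Tspan9 had 14 and Tspan5 had 14, so the order of members by distal count changed. Ranking by −log10 p-value in place of fold kept 5 of the 8 highest promoters, with Tspan14, Cd82 and Cd53 first. Tspan15, the highest by fold, ranked 9 at 58.2. Cd82 (93.8), Cd53 (75.3) and Cd37 (72.4) stood above it, and Tspan32 (46.4) below. Of the other open TspanC8 members, Tspan14 had 122, Tspan17 72.7, Tspan33 61 and Tspan5 55.6. The leads of Tspan15 and of the TspanC8 subgroup are therefore leads in fold enrichment. With the IDR lists the 8 highest promoters kept their values, while Tspan6 and Tspan8, at 7.65-fold and 5.73-fold, no longer entered the median. The cause of the other shifts was not tested, beyond the fewer regions that stricter lists and narrower windows hold. No paired analysis was possible because there is 1 group. Depth is unknown and no interval was computed.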
